A study of Mus musculus with 4 samples.

Results

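Microglia identity genes are 9 genes that are commonly used to recognise microglia, the resident macrophages of the brain, in tissue RNA. They are Cx3cr1, P2ry12, Tmem119, Csf1r, Aif1, Trem2, Tyrobp, Cd68 and Siglech. They were picked by gene symbol from a table of 29300 genes, and all 9 were found and were among the 17144 genes with enough reads to be tested. The counts come from the whole hippocampus of male C57BL/6 mice aged 7 to 8 months, collected on day 1 after the procedure. The control (sham) group held 2 mice that received isoflurane anesthesia and tramadol analgesia. The surgery group held 2 mice that received the same drugs and an open tibial fracture fixed with an intramedullary nail, a model of perioperative neurocognitive disorder. No untreated mice were included, so anesthesia and analgesia were common to both groups. The question put to the 9 genes was whether their transcripts differed between surgery and anesthesia alone.

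Microglia survey the brain with fine processes and depend on signals from neighbouring cells. CSF1R receives the survival signals CSF1 and IL-34, CX3CR1 receives the neuronal chemokine fractalkine, and P2RY12 senses ADP released by injured cells and steers the processes toward it. TREM2 binds lipids and apolipoproteins and signals through the adaptor DAP12, the product of Tyrobp. When microglia leave the resting state, transcripts such as P2ry12, Tmem119 and Cx3cr1 commonly fall, whereas lysosomal and phagocytic genes commonly rise.

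Of the 9 genes, only P2ry12 passed the test, and it was higher after surgery. Genes were tested by the quasi-likelihood method of edgeR, with p-values adjusted after Benjamini and Hochberg over all genes tested and a threshold of 0.05. By that rule 13.1% of all genes tested were higher, 12.8% were lower, and 26.0% differed in either direction, so 1 of 9 is no larger a share than that of all genes. P2ry12 was also the only member that met the limits for a differentially expressed gene (DEG), which also ask for a ratio of surgery to control from 1.5 upward or from 0.67 downward, limits that 9.01% of all genes met. The other 8 members had log2 fold changes from -0.36 to 0.03, with a median of -0.15. The median of all 9 was -0.14, beside 0.01 for all genes tested. In RNA of whole tissue, fewer microglia and less RNA per microglial cell cannot be told apart.

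P2ry12 was also the member with the lowest content of G and C bases (GC content) in its transcripts, at 39.4%, and fold changes in these libraries moved with GC content across all genes. The next lowest member was Siglech with 47.9%, the highest was Tmem119 with 59.5%, and the median of all genes was 50%. When offsets for the trend of a library's counts with GC content and transcript length were entered in the model, P2ry12 no longer passed the test (edgeR log2 fold change 0.25, SE 0.10, adjusted p = 0.19). The coding sequences of the members at both ends of the GC range are therefore shown here, taken from GENCODE release M21 for mm10. P2ry12 lies at chr3:59216272-59262871 on the minus strand. Its coding sequence of 1044 nt holds 43.9% G and C, and the 1300 nt of the same transcript outside it hold 34.4%. Tmem119 lies at chr5:113793729-113800516 on the minus strand, and its coding sequence of 843 nt holds 62.2%. The first 150 and the last 150 coding bases of each gene are printed 5′ to 3′, with the start and the stop codon in capitals.
P2ry12, coding bases 1 to 150: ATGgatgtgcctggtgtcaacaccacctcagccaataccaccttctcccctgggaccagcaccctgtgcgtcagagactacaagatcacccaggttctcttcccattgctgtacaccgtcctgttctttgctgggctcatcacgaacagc
P2ry12, coding bases 895 to 1044: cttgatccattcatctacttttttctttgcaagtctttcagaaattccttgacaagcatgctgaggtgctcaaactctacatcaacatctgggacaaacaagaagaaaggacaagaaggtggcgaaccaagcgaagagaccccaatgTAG
Tmem119, coding bases 1 to 150: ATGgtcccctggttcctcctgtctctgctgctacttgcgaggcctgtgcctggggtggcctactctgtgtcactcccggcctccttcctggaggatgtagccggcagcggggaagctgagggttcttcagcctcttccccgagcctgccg
Tmem119, coding bases 694 to 843: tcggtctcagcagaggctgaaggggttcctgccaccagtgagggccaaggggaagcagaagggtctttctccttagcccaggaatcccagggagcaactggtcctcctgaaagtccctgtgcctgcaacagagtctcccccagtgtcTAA

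The GC content was uneven within P2ry12. Its first 150 coding bases held 83 G or C bases (55.3%) and its last 150 held 64 (42.7%), so the start of the coding sequence did not share the low GC content of the whole transcript. Tmem119 held 97 (64.7%) at the start and 88 (58.7%) at the end. Values of both ends are given because neither end alone stands for the whole of P2ry12.

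Total counts ran from 15763432 to 18573386 per library, and replicates within a group differed by more than sampling noise (chi-square per degree of freedom 12.3 in control and 7.77 in surgery). Levels are given as CPM, the reads of a gene scaled to a fixed library size after TMM normalization. In this unit 3 counts correspond to 0.16 to 0.19 CPM. Libraries stood apart in transcripts of other sources. Ttr, the transthyretin gene of the choroid plexus, had 1566 counts in control 1 and 30523 to 92825 in the other libraries. Surgery 2 had the highest level of border macrophage and monocyte markers, described beside the results they touch.

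P2ry12, the ADP receptor of resting microglia, had 20 and 18.7 CPM in control mice and 35.5 and 33.9 CPM in surgery mice. The 4 libraries held 345, 342, 566 and 572 reads, and the surgery mice lay above the control mice with a wide gap. The mean rose from 19.4 ± 0.93 to 34.7 ± 1.13 CPM (SD, n = 2), a fold change of 1.79 (log2 0.84, SE 0.10, edgeR adjusted p = 0.0046). Leaving out each mouse in turn gave log2 fold changes from 0.79 to 0.88, and it passed the test each time. In such a fit 1 group holds a single mouse, which is assumed to vary like the mice of the other group.

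P2ry12 lies within Med12l, a gene on the opposite strand, and their exons overlap by 9 nt. Whether the counting used strand is not stated. Med12l itself had 883 and 960 reads in control mice and 808 and 810 in surgery mice. Whether reads of Med12l were counted for P2ry12 was not tested. Related receptors of the P2Y family lie in the same locus. P2ry13 had 172, 164, 205 and 178 reads in control 1, control 2, surgery 1 and surgery 2, and its log2 fold change of 0.30 did not pass the test (edgeR adjusted p = 0.23). P2ry14, with fewer reads, rose from 29 and 20 reads to 51 and 54 (log2 fold change 1.21, SE 0.31, edgeR adjusted p = 0.033). P2ry12 was therefore not the only P2Y receptor gene of the locus past the test. The GC contents of their transcripts were 44.7% and 42.7%, and with the length and GC offsets P2ry14 was at 0.86 (adjusted p = 0.17).

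**Figure D1:**
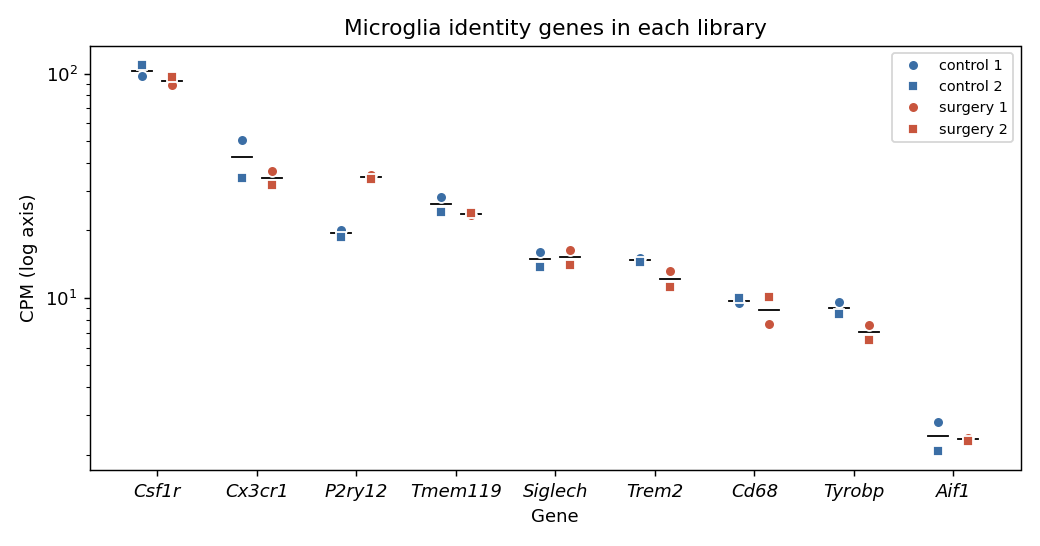
CPM of each member (horizontal, ordered by mean CPM) on a log axis in the 2 control and the 2 surgery libraries, with a bar at each group mean. P2ry12 is the member whose surgery libraries, 35.5 and 33.9 CPM, lie far above its control libraries, 20 and 18.7 CPM.

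Cx3cr1, the fractalkine receptor, had 50.6 and 34.2 CPM in control mice and 36.7 and 31.9 CPM in surgery mice. The groups overlapped, because control 1 was high and control 2 was not. Its log2 fold change was -0.30 (SE 0.19, edgeR adjusted p = 0.27). Without control 2 the log2 fold change was -0.57 and passed the test (edgeR adjusted p = 0.027), so this value rests on which control mouse is kept.

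Csf1r, the receptor on which microglial survival depends, was the member with the highest CPM. It had 97.4 and 109 CPM in control mice and 88.8 and 96.7 CPM in surgery mice. Both surgery values lay below both control values by a small margin. The log2 fold change was -0.15 (SE 0.08, 95% interval -0.36 to 0.05, edgeR adjusted p = 0.22). Of its annotated exon bases, 15.1% overlap Hmgxb3 on the opposite strand, and without strand the reads of both genes there cannot be separated.

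Trem2 and Tyrobp, a receptor and its signalling adaptor, were both lower in each surgery mouse than in each control mouse without passing the test. Trem2 had 15 and 14.4 CPM in control mice and 13.2 and 11.2 CPM in surgery mice (log2 fold change -0.27, SE 0.14, edgeR adjusted p = 0.20). Tyrobp had 9.64 and 8.48 CPM against 7.59 and 6.52 CPM (log2 fold change -0.36, SE 0.18, edgeR adjusted p = 0.18). Their intervals of -0.61 to 0.06 and -0.79 to 0.06 both include no change and a fall.

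Tmem119, a membrane protein that marks resident microglia, had 28.2 and 24.1 CPM in control mice and 23.5 and 23.8 CPM in surgery mice. The groups did not overlap, but they were separated by less than the spread of the control mice. Its log2 fold change was -0.14 (SE 0.11, edgeR adjusted p = 0.40). Siglech, a sialic acid-binding receptor that also signals through DAP12, had 16 and 13.8 CPM in control mice and 16.4 and 14 CPM in surgery mice. These values were interleaved, with a log2 fold change of 0.03 (SE 0.15, edgeR adjusted p = 0.91).

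Aif1, which encodes the actin-binding protein IBA1 stained as a pan-microglial marker, was the lowest member. It had 48 and 38 reads in control mice and 38 and 39 in surgery mice, and a log2 fold change of -0.05 with a wide interval of -0.73 to 0.64 (edgeR adjusted p = 0.92). At this depth a change of the size seen for P2ry12 lies outside that interval, but a moderate change in either direction does not. Cd68, a lysosomal glycoprotein of phagocytes, had 9.52 and 9.96 CPM in control mice and 7.65 and 10.1 CPM in surgery mice. The surgery mice lay on either side of the control mice, with a log2 fold change of -0.13 (SE 0.18, edgeR adjusted p = 0.63).

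In all, 1 member (P2ry12) was higher and 4 (Csf1r, Trem2, Tyrobp and Tmem119) were lower in both surgery mice than in both control mice. Such a separation occurred in 65.5% of all genes tested, so 5 of 9 is not above that background. Summed over the members, the level was 249 and 235 CPM in control mice and 232 and 230 CPM in surgery mice.

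Divided by the annotated exon length, the order of levels in control mice was led by Csf1r with 17.9 ± 1.44 CPM per kb (SD, n = 2). Tyrobp followed with 13.6 ± 1.23, Tmem119 with 11.3 ± 1.25, Cx3cr1 with 9.41 ± 2.58, Cd68 with 7.75 ± 0.25 and P2ry12 with 7.61 ± 0.37 CPM per kb. The neighbours from Tmem119 to P2ry12 overlapped over the control mice. Siglech with 4.41, Trem2 with 2.97 and Aif1 with 1.59 CPM per kb came last, and each was separated from the next. In surgery mice P2ry12 moved from rank 6 to rank 2 with 13.6 CPM per kb, and the other 8 kept their order among themselves. Exon length counts every annotated exon, so a gene with long rare isoforms gets a low value.

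Across all genes, the log2 fold change fell with GC content, and the members lay at varying distances from that trend. In the eighth of genes with the lowest GC content, which holds P2ry12, the median log2 fold change was 0.60 and 50.2% were called higher. In the fourth eighth, with Siglech, the median was 0.04, and in the fifth, with Aif1 and Cx3cr1, it was -0.08, with Cx3cr1 itself at -0.30. Cd68, Trem2, Csf1r and Tyrobp fell in the sixth eighth, with a median of -0.17 and 18.9% called lower, and of these Tyrobp lay farthest from the median, at -0.36. Tmem119 fell in the last eighth, where the median was -0.34 and 38.3% were called lower, and its own -0.14 lay above that median.

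**Figure D2:**
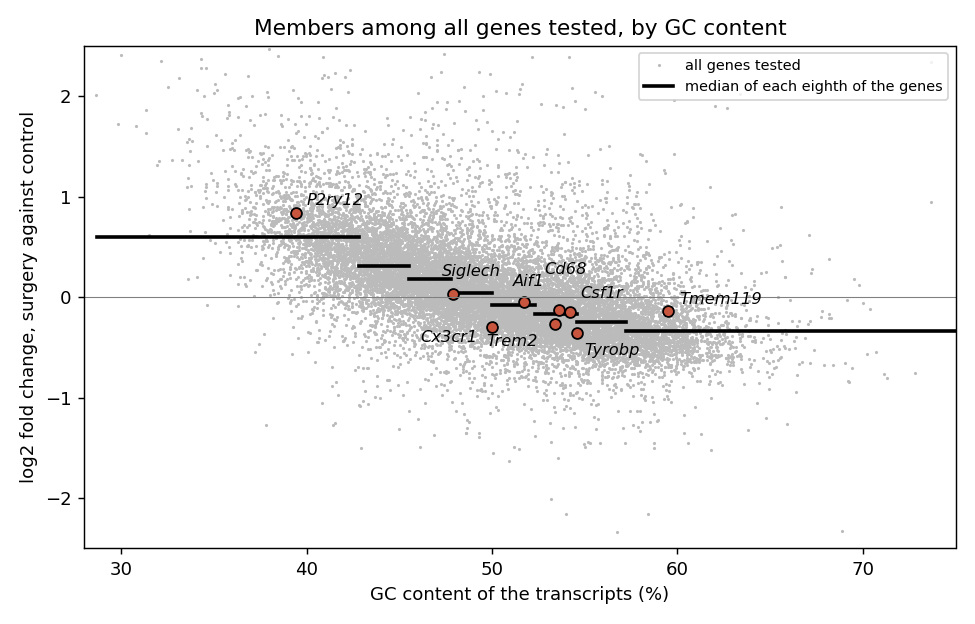
Log2 fold change of surgery against control (vertical) against the GC content of the transcripts in percent (horizontal) for 17120 genes with a GC value, as grey dots, with the members as red dots and the median of each eighth of the genes as bars; 24 genes lie outside the axes. The medians fall from 0.60 to -0.34 with rising GC content, and P2ry12 lies at the upper left.

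With the length and GC offsets, 2.42% of all genes tested and 0 of 9 members passed the test. At an unadjusted p under 0.05 there was 1 member (P2ry12) with the offsets, beside 22.6% of all genes, and 1 without them, beside 39.4%. The median of the members moved to 0.06, beside 0.04 for all genes. Tmem119 moved most among the other members, from -0.14 to 0.23 (edgeR adjusted p = 0.32 with the offsets). Cx3cr1 remained at -0.25 (adjusted p = 0.48) and Tyrobp was at -0.16 (adjusted p = 0.64). Whether the trend with GC content arose in the tissue or in the making of the libraries was not tested.

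**Figure D3:**
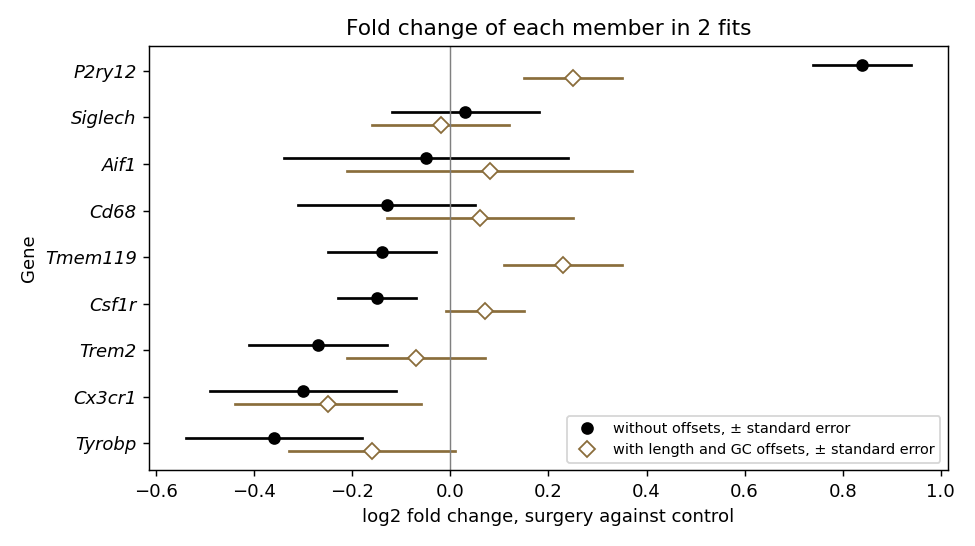
Log2 fold change of surgery against control (horizontal) of each member (vertical) in the fit without offsets (black dots) and with length and GC offsets (open diamonds), both with ± 1 standard error. P2ry12 moves from 0.84 to 0.25, and the other members lie between -0.36 and 0.23 in both fits.

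Other homeostatic microglia genes, 13 genes that are also characteristic of resting microglia, were examined next. Of these, 0 passed the test upward and 1 passed it downward, with log2 fold changes from -0.63 to 0.70 and a median of 0.07. At an unadjusted p under 0.05 there were 4, beside 39.4% of all genes. Counts past the test in this and the following lists stand beside 26.0% of all genes, or 2.42% with the length and GC offsets. Gpr34, a lysophospholipid receptor, had the highest value (0.70, edgeR adjusted p = 0.051) and Crybb1 the lowest (-0.63, adjusted p = 0.11). Selplg, the P-selectin ligand, fell from 33.9 and 33 CPM to 25.8 and 25.5 CPM (log2 fold change -0.38, SE 0.09, edgeR adjusted p = 0.024). Golm1 had 70.2, 65.3, 67.4 and 64.2 CPM in control 1, control 2, surgery 1 and surgery 2. With the length and GC offsets 0 of 13 passed the test. Gpr34 then turned to -0.14, Crybb1 was at -0.25 and Selplg at -0.15 (edgeR adjusted p = 0.73, 0.59 and 0.38).

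General myeloid genes, shared by microglia and other macrophages, held 15 genes with 1 higher, 0 lower and a median of 0.02. Itgam, the CD11b integrin chain, rose from 2.79 and 2.13 CPM to 5.46 and 5.57 CPM (log2 fold change 1.17, SE 0.24, edgeR adjusted p = 0.016). It was at 1.21 with the length and GC offsets and then missed the threshold (edgeR adjusted p = 0.056), which it passed when the replicate block was added (adjusted p = 0.0078). The block follows replicate numbers, which do not establish that mice were paired, and this limits every call made with it. With the offsets 415 of 17144 genes passed the test, and with the offsets and the block 2693 did. DESeq2 gave Itgam no adjusted p-value and called 0 genes of this list. The genes of this list with the highest level lay near the threshold without passing it. Ctss, a lysosomal protease, was at 0.20 (adjusted p = 0.085) and Laptm5 was at -0.26 (adjusted p = 0.062).

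Ligands and checkpoints of the member receptors, most of which are made by neurons and other glia, moved in both directions. Despite the name of this list, its checkpoint and TGF-beta genes belong to receptor systems other than those of the members. Of 13 genes 12 were tested, 3 were higher and 3 lower, beside 26.0% of all genes in either direction, and the median was 0.00. Among the ligands, Il34 fell from 46.8 and 46.5 CPM to 34.7 and 35.4 CPM (log2 fold change -0.41, SE 0.08, edgeR adjusted p = 0.013). Cx3cl1, the fractalkine gene, fell from 676 and 614 CPM to 527 and 491 CPM (-0.34, SE 0.07, adjusted p = 0.018). Csf1, the other ligand of CSF1R, was at 0.10 (adjusted p = 0.50), and the ligands were not tested against each other. The TREM2 ligands Apoe and Clu were at -0.05 and -0.11 and did not pass the test (adjusted p = 0.69 and 0.41).

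Among the checkpoints, Cd200 rose by 0.33 (edgeR adjusted p = 0.016) and Cd47, the signal against engulfment, rose by 0.49 (adjusted p = 0.0071). Sirpa, the receptor of CD47, fell by 0.26 (adjusted p = 0.016). Cd200r1, the receptor of CD200, had too few reads to be tested. Of the TGF-beta pathway, which maintains the resting state, Tgfbr1 rose from 20.8 and 19.5 CPM to 31.5 and 32.9 CPM (log2 fold change 0.68, SE 0.10, adjusted p = 0.0062). Tgfb1 at 0.07, Tgfbr2 at 0.06 and Nrros at -0.40 did not pass the test (adjusted p = 0.87, 0.87 and 0.12). With the length and GC offsets 0 of the 12 passed the test, and at an unadjusted p under 0.05 there were 5, beside 22.6% of all genes. The falls shrank, to -0.02 for Cx3cl1, -0.10 for Il34 and -0.05 for Sirpa. The rises shrank too, to 0.25 for Cd47, 0.38 for Tgfbr1 and 0.23 for Cd200 (edgeR adjusted p = 0.10, 0.084 and 0.11). With these offsets and the replicate number as a block, 2693 of 17144 genes passed the test, and so did 5 of the 12, all higher. They were Apoe (adjusted p = 0.0014), Cd47 (0.014), Tgfbr1 (0.021), Cd200 (0.033) and Csf1 (0.036), whereas Il34 did not pass it (-0.10, adjusted p = 0.47).

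TREM2 and DAP12 signalling genes, the kinases and adaptors downstream of the receptor, held 9 tested genes of 10, of which 0 passed the test in either direction (edgeR), with a median of 0.01. At an unadjusted p under 0.05 there was 1, Lyn, a kinase with a log2 fold change of 0.65, and DESeq2 also called 0. Grb2 was at -0.09 and Inpp5d, a lipid phosphatase, at 0.01. Purine sensing genes held 9 genes, with 1 higher, 1 lower and a median of -0.03. Entpd1, the ecto-enzyme that degrades ATP and ADP, rose from 9.17 and 9.41 CPM to 13 and 17.6 CPM (log2 fold change 0.72, SE 0.18, adjusted p = 0.030). Adora1, an adenosine receptor that neurons also express, fell from 227 and 226 CPM to 173 and 165 CPM (-0.42, SE 0.06, adjusted p = 0.0060). P2rx7 was at -0.03 (adjusted p = 0.87). With the length and GC offsets 0 of 9 passed the test, with Adora1 at -0.17 (adjusted p = 0.16) and Entpd1 at 0.64 (adjusted p = 0.11). Entpd1 passed it when the replicate block was added (edgeR adjusted p = 0.015), a fit in which 2693 of 17144 genes passed.

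Myeloid transcription factors held 8 genes, with 2 higher and 0 lower, beside 26.0% of all genes in either direction, and a median of -0.01. The genes that rose were Mef2c (log2 fold change 0.59, SE 0.07, edgeR adjusted p = 0.0049) and Mef2a (0.54, SE 0.08, adjusted p = 0.0064), which neurons also express. With the length and GC offsets 0 of 8 passed the test, with Mef2c at 0.25 (adjusted p = 0.11) and Mef2a at 0.19 (adjusted p = 0.19). Both passed it when the replicate block was added (edgeR adjusted p = 0.011 and 0.041), a fit in which 2693 of 17144 genes passed. Spi1, the gene of the myeloid factor PU.1, was at -0.54 and did not pass the test (adjusted p = 0.17).

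Disease-associated microglia genes, which rise in microglia around damaged neurons, held 18 tested genes of 21, with 2 higher, 3 lower and a median of 0.10. Of all genes tested, 26.0% passed the test in either direction. Ccl6, a chemokine, rose from 0.70 and 0.93 CPM to 1.94 and 2.19 CPM (log2 fold change 1.34, SE 0.34, edgeR adjusted p = 0.033). Igf1, a growth factor, rose by 0.83 (SE 0.19, adjusted p = 0.021). The lysosomal proteases Ctsd and Ctsb fell by 0.50 and 0.23 (adjusted p = 0.047 and 0.024), and Fth1, the ferritin heavy chain, fell by 0.36 (adjusted p = 0.014). These last genes are also made by most other brain cells. The call of Ctsd lay close to the threshold, with adjusted p-values of 0.063 with library totals, 0.056 with limma-voom, 0.12 with no filter and 0.054 with a minimum count of 50. Cst7, Itgax and Clec7a had too few reads to be tested, and with the length and GC offsets 0 of the 18 passed the test. At an unadjusted p under 0.05 there were 8 without and 6 with the offsets, beside 39.4% and 22.6% of all genes. With the offsets Ccl6 was at 1.16 and Igf1 at 0.54 (edgeR adjusted p = 0.12 and 0.16). Ctsd was at -0.24, Fth1 at -0.21 and Ctsb at -0.13 (adjusted p = 0.34, 0.14 and 0.21). When the replicate block was added, 5 of this list passed the test, beside 2693 of 17144 genes. Ctsd (adjusted p = 0.029) and Fth1 (0.025) were among them, but Ccl6 (0.064), Igf1 (0.091) and Ctsb (0.11) were not.

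**Figure D4:**
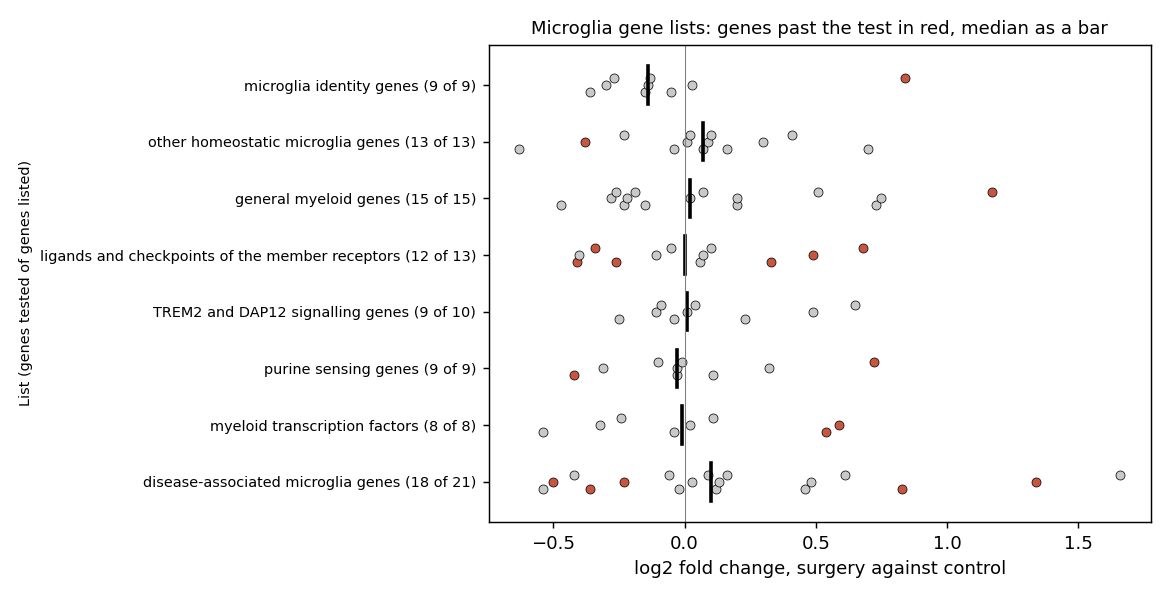
Log2 fold change of surgery against control (horizontal) of each tested gene of the 8 microglia lists (vertical), with genes past the test in red, the others in grey and the list median as a bar. The medians lie between -0.14 for the microglia identity genes and 0.10 for the disease-associated genes.

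The listed calls differed in how far they rested on single mice, under the same assumption for the mouse left alone in its group. Of the 17 listed microglia genes other than the members that passed the test, 7 (Il34, Cd47, Tgfbr1, Adora1, Mef2a, Mef2c and Fth1) also passed it without any 1 of the 4 mice. Selplg and Ccl6 passed it in 0 of these 4 fits, with lowest adjusted p-values of 0.051 and 0.062. Cd200, Sirpa, Ctsb and Entpd1 passed it in 1 of 4, and Igf1 and Ctsd in 2 of 4. Cx3cl1 missed it only without control 1 (edgeR adjusted p = 0.054) and Itgam only without control 2 (adjusted p = 0.083). The log2 fold change of Ctsd ran from -0.72 to -0.27, and that of Entpd1 from 0.49 without surgery 2 to 0.91.

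Among 84 other tested genes of the microglia lists, the genes whose pattern over the 4 libraries was most like the median of the members were Golm1, Grb2 and P2rx4. Their root mean square distances were 0.056, 0.059 and 0.076 on the log2 scale. P2rx4 had 14.3, 12, 12.4 and 13.6 CPM in control 1, control 2, surgery 1 and surgery 2.

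Markers of other cells differed between libraries. Of 12 markers of border macrophages and monocytes, which share Csf1r, Aif1 and Cd68 with microglia, 6 were tested and 0 passed the test by edgeR or DESeq2, with 1 at an unadjusted p under 0.05. With the replicate block 2 of them passed it, and with the block and the offsets 1 did, beside 5281 and 2693 of 17144 genes. Their summed level was 6.39 and 11.1 CPM in control mice and 8.34 and 26.3 CPM in surgery mice, highest in surgery 2, and 0 of the 12 was at 0 counts in every library. Mrc1, a marker of perivascular macrophages, had 26, 40, 35 and 99 reads, and Cd163 had 14, 44, 23 and 73 reads in control 1, control 2, surgery 1 and surgery 2. In surgery 2 the counts of Spp1 (384, against 44, 112 and 76) and Lyz2 (393, against 160, 185 and 99) were also the highest, and both belong to the disease-associated list. Cd68 was likewise higher in surgery 2 than in surgery 1. Without surgery 2, P2ry12 remained the only member past the test and the median of the members was -0.15. The median of the tested border macrophage and monocyte markers then turned from 0.94 to -0.25, and 3 of 19 tested disease-associated genes passed the test, in place of 5 of 18.

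Of 11 markers of neutrophils and lymphocytes, 4 were tested, and Ltf, the lactoferrin gene of neutrophils, fell by 1.63 (edgeR adjusted p = 0.039). DESeq2 called 0 of them, as did edgeR with the length and GC offsets. With the offsets and the block 3 passed, beside 2693 of 17144 genes. Without surgery 2, when surgery 1 alone stood for its group, 6 markers were tested and 3 were called lower. Their summed level was 10.9 and 16.2 CPM in control mice and 3.32 and 11.9 CPM in surgery mice. Among the brain cell types, neurons had 2 of 8 markers higher and 2 lower, astrocytes 3 of 6 higher and 1 lower, and endothelial cells 2 of 6 higher, beside 26.0% of all genes in either direction. With the length and GC offsets 1 of 8, 1 of 6 and 0 of 6 passed the test. Oligodendrocytes had 0 of 6 past the test, or 2 of 6 with the replicate block, a fit in which 5281 of 17144 genes passed. Their summed levels were 6180 and 5330 CPM in control mice and 6080 and 3930 CPM in surgery mice. Of 4 hippocampal markers 2 were higher and 1 was lower, with 0 past the test with the offsets, and of 3 markers of thalamus, striatum and choroid plexus 0 passed the test. The part of these differences in the values of the members was not tested.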

How the data were processed

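Poly(A) RNA of the hippocampus of 2 control and 2 surgery mice was sequenced in read pairs. After filtering, the authors aligned the reads to mm10 using HISAT, and the deposited values are raw read counts per gene and mouse. The submitters' processing notes name HISAT2 2.1.0, Bowtie2 2.2.3, TopHat2 and HTSeq 0.6.0, without their roles, and the use of strand is not given in the sources used here. The deposited table also holds the authors' own comparison (fold changes and p-values), which was not used. Nothing beyond the mouse separates replicates. The p-values rest on the spread between 2 mice per group, which edgeR combines for each gene with information from all genes.

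Counts were tested in R 4.3.3 with edgeR 4.0.16 (filterByExpr at a minimum count of 10, TMM, quasi-likelihood F test, Benjamini-Hochberg adjustment over 17144 genes) with no covariate. The SE of a log2 fold change is its size divided by the square root of F. Total counts of 15763432 to 18573386 limit the precision of genes with few reads. Alternatives were library totals, RLE size factors, DESeq2 1.42.0, limma-voom (limma 3.58.1), other filters, the replicate number as a block, offsets for transcript length and GC content (mgcv 1.9.3, basis size 8), and leaving out each mouse. Offsets for GC content alone were added after seeing the data. The procedure was tested on simulated counts.

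GENCODE release M21 gave lengths, GC contents and sequences, and 29238 of 29300 identifiers occur in it. The sequence stretches were chosen after the fold changes and GC contents were known. The first 150 coding bases were extracted first and had a higher GC content in P2ry12 than its whole coding sequence, the last 150 were extracted next, and both are printed.

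The members and the gene lists were chosen with earlier results of these data known. Named are all members, the whole list of ligands and checkpoints, up to 6 genes past the test and the 2 with the highest CPM in each other list, and the 3 genes most alike in pattern. Some genes named by this rule in the lists of other cell types are given by counts only, and 1 gene that the rule names is not reported here. P2ry13, P2ry14, Gpr34, Crybb1, Med12l, Hmgxb3, Spi1, Lyn, Spp1, Lyz2, Cst7, Itgax and Clec7a fall outside this rule and were named after their values were seen.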

Additional observations from a re-analysis of the deposited data

How the results depend on the processing

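P2ry12 was higher after surgery in all 14 alternatives, with log2 fold changes from 0.24 to 0.89, and passed the test in 11 of them but not in the 3 with offsets. With length and GC offsets, 0 members passed the test and 0 were DEGs, and the median was 0.06; this was also so with the replicate block added (0, 0 and 0.06), and with GC offsets alone (0, 0 and 0.07). P2ry12 then had adjusted p-values of 0.19, 0.11 and 0.20. The other alternatives left 1 member past the test, except 2 without control 2. Leaving out each mouse gave medians from -0.25 to -0.03 and 1 to 2 members past the test. Over all genes, 4449 passed the test, against 2665 with no filter, 2408 without control 2, 2933 without surgery 2, 415 with length and GC offsets, 2693 with these and the block, and 409 with GC offsets alone.

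The replicate numbers are shared by the groups only as numbers. Deviations of same-numbered mice correlated at 0.22 over 17144 genes, with 2 pairs, which does not establish pairing. With the replicate block P2ry12 was at 0.84 (edgeR adjusted p = 0.0029) and 5281 genes passed the test.

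Signs of genes that did not pass the test turned in some alternatives. In the fits with length and GC offsets, with the block added and with GC offsets alone, in that order, Tmem119 was at 0.23, 0.23 and 0.22, Csf1r at 0.07, 0.07 and 0.07, Aif1 at 0.08, 0.08 and 0.08, Cd68 at 0.06, 0.06 and 0.07, Siglech at -0.02, -0.02 and -0.03, Clu at 0.12, 0.13 and 0.12, P2rx7 at 0.03, 0.03 and 0.03, and P2rx4 at 0.14, 0.15 and 0.14. Apoe was at 0.33 in all 3 and passed the test with the block added (edgeR adjusted p = 0.0014). Grb2 was at 0.01 in the first and second of these fits. With library totals Golm1 was at 0.01, P2rx7 at 0.01 and P2rx4 at 0.04, and with a minimum count of 50 P2rx4 was at 0.02. Without control 1, Aif1 was at 0.17, Golm1 at 0.01, Tgfbr2 at -0.03, Inpp5d at -0.24 and P2rx4 at 0.12. Without control 2, Siglech was at -0.08, Apoe at 0.04, Clu at 0.01 and Tgfb1 at -0.05. Without surgery 1, Cd68 was at 0.03, Siglech at -0.11 and P2rx4 at 0.04. Without surgery 2, Tgfb1 was at -0.34, Tgfbr2 at -0.32, Inpp5d at -0.27 and P2rx7 at 0.02. Over the fits that leave out 1 mouse, the values of these genes ran from -0.10 to 0.01 for Golm1, -0.15 to 0.04 for Apoe, -0.34 to 0.37 for Tgfb1, -0.32 to 0.34 for Tgfbr2, -0.27 to 0.31 for Inpp5d, -0.10 to 0.02 for P2rx7 and -0.14 to 0.12 for P2rx4. Calls of named genes changed in a few other fits. With no filter, Selplg (adjusted p = 0.053), Ccl6 (0.061) and Entpd1 (0.074) did not pass the test by edgeR. Ctss passed it with library totals (0.047) and Laptm5 with the replicate block (0.049). The cause was not tested.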
